A study of Mus musculus with 2 samples.

Results

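Mitochondrial ribosomal protein genes were taken as the protein-coding genes of the GENCODE mouse annotation whose symbol is Mrpl or Mrps followed by a digit. By this rule 78 of 21911 protein-coding genes were members, 49 with an Mrpl and 29 with an Mrps symbol. Mitochondria carry their own ribosome, which makes the few inner-membrane proteins encoded by mitochondrial DNA, all of them parts of the respiratory chain. All of its proteins are encoded in the nucleus, made in the cytosol and imported, and its large subunit forms peptide bonds while its small subunit reads the messenger RNA. Some of these proteins descend from bacterial ribosomal proteins, and others have no bacterial counterpart. In skeletal muscle, a tissue rich in mitochondria, the genes belong to the programme of mitochondrial biogenesis, for which the factors NRF1 and GABP are known.

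The tissue was gastrocnemius, a calf muscle, from 14 day old male mice of the F1 hybrid strain B6CASTF1/J, which carry 1 set of chromosomes from C57BL/6J and 1 from CAST/EiJ. No treatment is labelled, and the single group held 2 DNase-seq libraries, labelled biological replicates 1 and 2. DNase-seq marks DNA that is open to cutting by the enzyme DNase I, and a footprint is a short run of bases inside open DNA that is protected from cutting. The labels describe both samples with the unexplained phrase "3x Males" and give the same donor entry, so the difference between the libraries may be partly technical. Whole tissue was used, so fewer open cells and less opening per cell cannot be told apart. There is no second condition, and the values below are descriptions over 2 libraries, set beside all protein-coding genes.

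The libraries held 82498 and 88198 peaks and 320456 and 384435 footprints for replicates 1 and 2. All 10 skeletal muscle markers had a promoter peak in both libraries, among them Ckm, the muscle creatine kinase, and Acta1, the skeletal actin. None of the 5 hepatocyte, 5 leukocyte or 4 keratinocyte markers had one. The ratio of replicate 1 to replicate 2 at the muscle markers, divided by the median ratio of open genes, had a median of 2.04 and ran from 1.02 to 2.40, and the part of this library difference in the members' values was not tested.

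Promoter sequences are shown for 11 members whose footprints, motifs or neighbours recur in the results: 4 with an NRF1 motif, 4 with an ETS or YY1 motif, 1 with SP/KLF motifs, 1 promoter shared by a pair of members, and Mrpl18, where no base near the RefSeq start lay in a footprint. Each runs from 100 bases before the RefSeq start to 30 bases from it on, in the direction of transcription (RefSeq, GRCm38.p6, the C57BL/6J reference, so CAST/EiJ differences are not shown). Capitals mark bases that lay in a footprint in both libraries.
Mrpl9 (chr3:94443236-94443365, plus strand): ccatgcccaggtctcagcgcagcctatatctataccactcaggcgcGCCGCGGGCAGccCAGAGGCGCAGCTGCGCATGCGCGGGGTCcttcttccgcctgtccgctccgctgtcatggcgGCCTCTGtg
Mrpl17 (chr7:105811058-105811187, minus strand): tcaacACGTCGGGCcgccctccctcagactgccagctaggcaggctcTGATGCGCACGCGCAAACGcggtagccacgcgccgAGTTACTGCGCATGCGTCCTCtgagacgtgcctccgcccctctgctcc
Mrpl22 (chr11:58171564-58171693, plus strand): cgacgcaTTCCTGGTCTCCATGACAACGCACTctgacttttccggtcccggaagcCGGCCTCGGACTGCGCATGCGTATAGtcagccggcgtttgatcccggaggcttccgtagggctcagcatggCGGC
Mrpl32 (chr13:14613008-14613137, minus strand): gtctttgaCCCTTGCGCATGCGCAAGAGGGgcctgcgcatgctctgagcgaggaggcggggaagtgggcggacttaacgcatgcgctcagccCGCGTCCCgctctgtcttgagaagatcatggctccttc
Mrpl3 (chr9:105053168-105053297, plus strand): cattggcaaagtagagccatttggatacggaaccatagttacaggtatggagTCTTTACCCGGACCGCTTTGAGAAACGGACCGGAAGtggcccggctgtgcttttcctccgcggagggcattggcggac
Mrpl43 (chr19:45006413-45006542, minus strand): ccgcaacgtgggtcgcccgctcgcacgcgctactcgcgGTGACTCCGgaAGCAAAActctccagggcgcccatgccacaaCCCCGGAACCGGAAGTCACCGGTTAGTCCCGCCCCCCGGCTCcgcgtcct
Mrpl51 (chr6:125192100-125192229, plus strand): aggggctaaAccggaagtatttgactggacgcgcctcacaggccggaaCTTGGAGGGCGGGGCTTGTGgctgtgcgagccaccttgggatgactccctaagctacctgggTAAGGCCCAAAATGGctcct
Mrps27 (chr13:99344686-99344815, plus strand): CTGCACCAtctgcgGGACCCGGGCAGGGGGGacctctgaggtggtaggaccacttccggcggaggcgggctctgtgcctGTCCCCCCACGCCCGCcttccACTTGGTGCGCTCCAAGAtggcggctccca
Mrpl40 (chr16:18876608-18876737, minus strand): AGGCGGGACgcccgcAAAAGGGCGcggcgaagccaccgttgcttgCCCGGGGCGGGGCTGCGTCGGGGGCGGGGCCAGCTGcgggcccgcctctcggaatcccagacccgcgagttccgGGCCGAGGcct
Mrpl46 (chr7:78783060-78783189, minus strand): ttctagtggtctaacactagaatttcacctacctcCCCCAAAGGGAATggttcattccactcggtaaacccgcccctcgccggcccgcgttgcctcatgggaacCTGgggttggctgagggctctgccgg
Mrpl18 (chr17:12916062-12916191, minus strand): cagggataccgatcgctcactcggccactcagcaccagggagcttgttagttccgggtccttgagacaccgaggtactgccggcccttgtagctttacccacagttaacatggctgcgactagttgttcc

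In these sequences the capitals covered 47 of the 130 bases at Mrpl9, 49 at Mrpl17, 55 at Mrpl22, 30 at Mrpl32, 36 at Mrpl3, 58 at Mrpl43, 36 at Mrpl51, 59 at Mrps27, 62 at Mrpl40, 16 at Mrpl46 and 0 at Mrpl18. For Mrpl18 the RefSeq start lies 254 bases from the GENCODE start at position 12916345 of chromosome 17, and its 6 and 8 footprints lay outside the window shown. The protected runs at Mrpl9, Mrpl17 and Mrpl22 take in an NRF1 word, and those at Mrpl3 and Mrpl43 take in an ETS word, as described with the motifs. A reading of these runs as protein binding was not made, because a footprint names no protein.

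Every member had an open promoter. A peak lay within 1 kb of an annotated start for 78 of 78 members in both libraries, where 61.7% of all protein-coding genes had one in both, 63.4% in replicate 1 and 63.4% in replicate 2. Genes with a peak in both libraries are called open here, and there were 13512 of them. The strongest promoter peak of the members had a median signal of 7.11 in replicate 1 and 4.26 in replicate 2, where open genes had 6.15 and 3.51. The signal is the authors' own peak value, and its scale differed between the libraries, since open genes had a median ratio of 1.83 between replicates 1 and 2. Levels were therefore also expressed as a percentile of all protein-coding genes in the same library, on which the members had medians of 73.1 and 75.5, with a mean of 74.3 ± 1.67 (SD, n = 2 libraries). Open genes had a mean of 69.2 on the same scale. The members were thus open without exception, and only a little above the typical open promoter in strength. With the signals of all peaks in the window summed, the members' percentile was 69.7 and that of open genes 69.2.

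**Figure D1:**
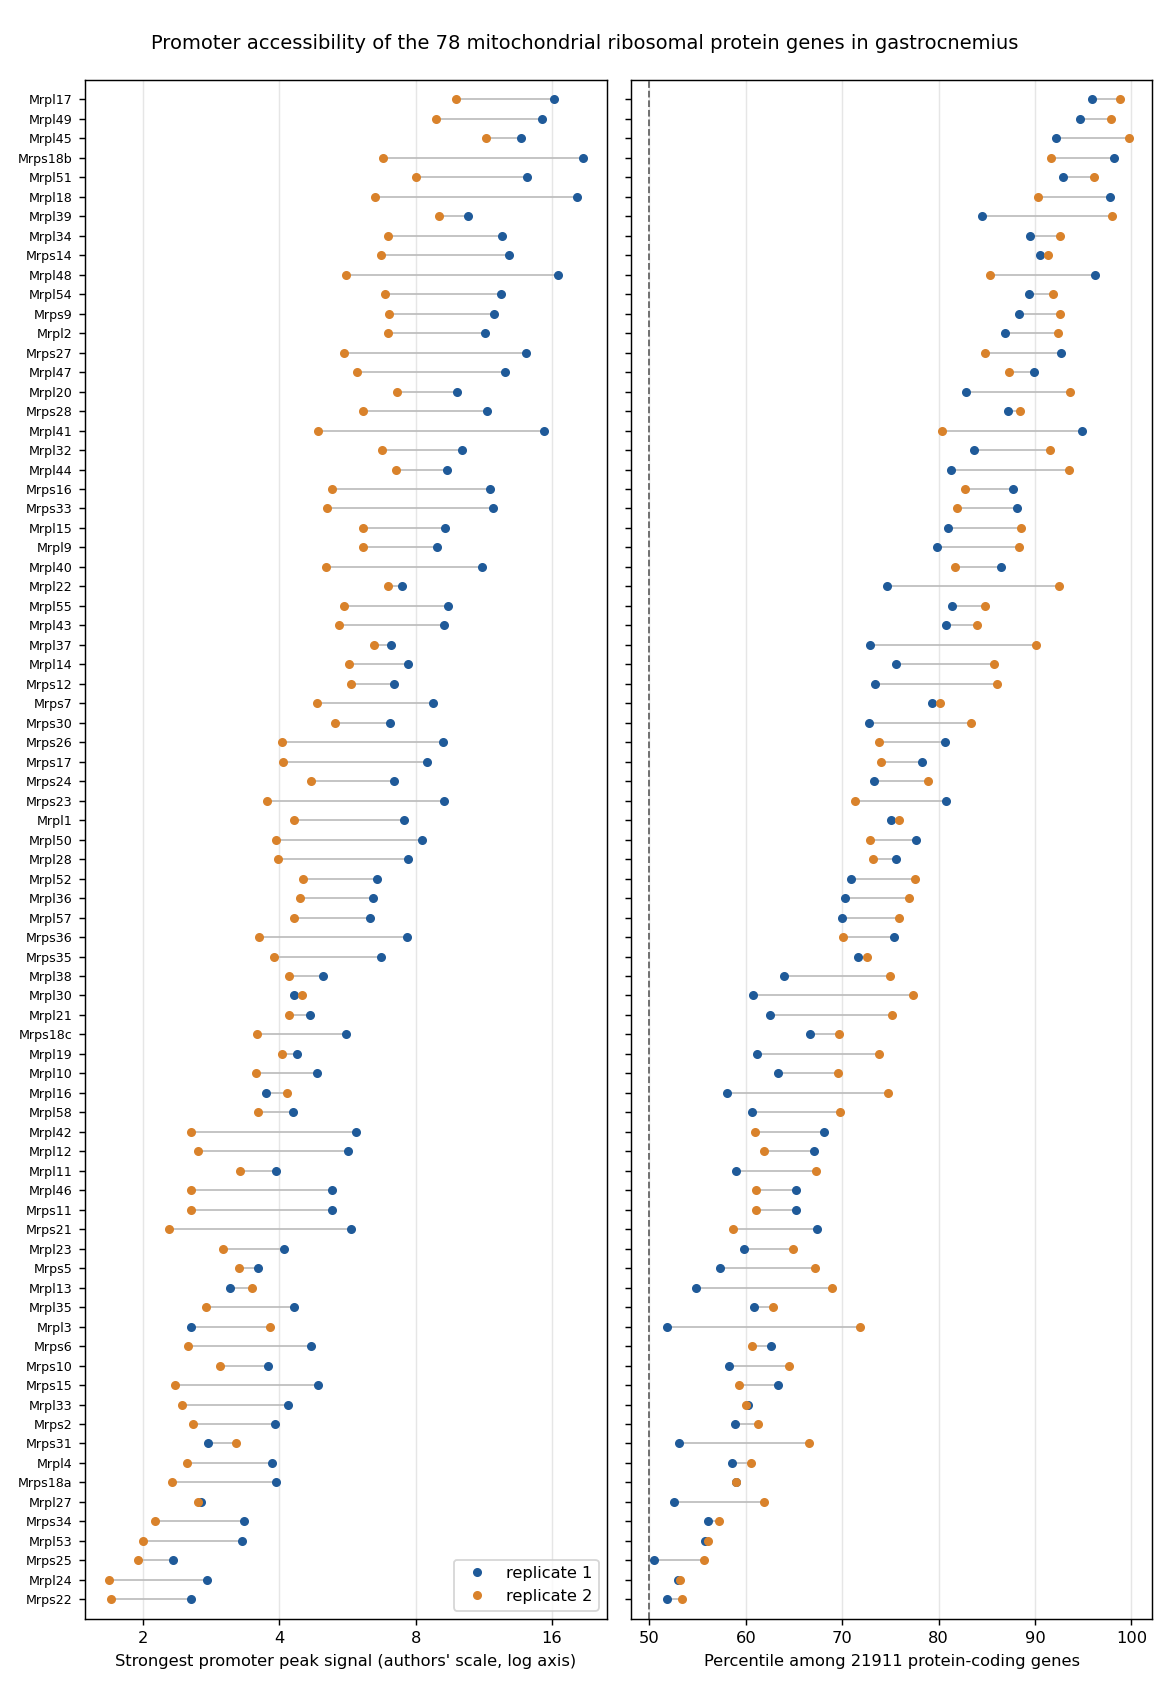
Strongest promoter peak signal on a log axis (left) and its percentile among all protein-coding genes (right) for each of the 78 members in replicate 1 (blue) and replicate 2 (orange), ordered by mean percentile. All members lie above the dashed line at percentile 50, with mean percentiles from 52.6 at Mrps22 to 97.4 at Mrpl17. By mean percentile, 10991 of the 13512 open genes also lie above 50.

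The members formed a continuous range. Their mean percentiles ran from 52.6 to 97.4, with 39 of 78 above percentile 75, beside 5524 of the 13512 open genes. Above percentile 90 were 12 members, or 15.4%, and the share of open genes was also 15.4%. The strongest was Mrpl17, a large-subunit protein with a bacterial homologue, with signals of 16.2 and 9.82 in replicates 1 and 2. Mrpl49, a mitochondria-specific large-subunit protein, had 15.2 and 8.89. Mrpl45, which lies at the tunnel exit and helps hold the ribosome at the inner membrane, had 13.7 and 11.4. These members stood near the top of all genes in both libraries. Mrps18b, a small-subunit protein, had 18.8 and 6.78. Mrpl51 of the large subunit had 14.1 and 8.01. Neither the peak of Mrps18b nor that of Mrpl51 covered a start used here. Each was also the strongest peak of a gene on the other strand, Ppp1r10 for Mrps18b and Ncapd2 for Mrpl51. Mrpl18, another large-subunit protein, had 18.1 and 6.51. Both Mrps18b and Mrpl18 ranked higher in replicate 1 than in replicate 2.

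The weakest promoters were still called in both libraries. Mrps22, a mitochondria-specific small-subunit protein in which human mutations cause muscle and heart disease, had signals of 2.55 and 1.70. Mrpl24 of the large subunit had 2.76 and 1.68. Mrps25 of the small subunit had 2.32 and 1.95. These members had mean percentiles of 52.6 to 53.1, near the middle of all genes. Mrpl53 had 3.31 and 2.00. Mrps34, in which human mutations cause Leigh syndrome, had 3.35 and 2.13. Mrpl27, which reaches towards the peptidyl transferase centre, had 2.68 and 2.65. All 6 of these weakest members lay below the median of open genes in both libraries.

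By role, the members that serve the catalytic and factor-binding parts of the large subunit spread over much of this range. Mrpl2, next to the peptidyl transferase centre, had signals of 11.4 and 6.94. Mrpl3, another protein of that region, had 2.55 and 3.81. Mrpl12, the stalk protein that recruits translation factors, had 5.68 and 2.65. These values place Mrpl2 near the top of the members and the stalk in the lower part. Mrpl10, the base of the stalk, had 4.86 and 3.56, and Mrpl11, its neighbour, had 3.93 and 3.28. Mrpl44, a protein with a fold related to ribonuclease III, had 9.40 and 7.23. Mrpl58, a peptidyl-tRNA hydrolase that rescues stalled ribosomes, had 4.28 and 3.58. Mrpl44 thus had a higher signal than Mrpl10, Mrpl11, Mrpl12 and Mrpl58 in both libraries.

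In the small subunit, Mrps12, a protein of the decoding centre, had signals of 7.19 and 5.75. Mrps7 had 8.76 and 4.85. Mrps16 had 11.7 and 5.24. All 3 were above Mrps2, with 3.92 and 2.58, in both libraries. Mrps27, a pentatricopeptide repeat protein, had 14.1 and 5.56. The 3 related Mrps18 genes differed. Mrps18b had the signals given above. Mrps18c had 5.60 and 3.57, and Mrps18a had 3.93 and 2.32. Mrps18a and Mrps30 (7.01 and 5.32) carry small-subunit symbols, but their proteins sit in the large subunit. Mrps36, whose protein is now assigned to the alpha-ketoglutarate dehydrogenase complex and not to the ribosome, had 7.65 and 3.62.

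With proteins assigned by their place in the human mitochondrial ribosome, 51 members belonged to the large and 26 to the small subunit. The median percentile was 75.1 ± 3.10 for the large and 72.2 ± 0.34 for the small subunit (SD, n = 2 libraries). The large-minus-small difference was 0.46 in replicate 1 and 5.34 in replicate 2, a mean of 2.90 with an SD of 3.45, so it was smaller than the spread between libraries. Within the large subunit, 30 proteins with bacterial homologues had medians of 68.7 and 75.5, and 21 mitochondria-specific proteins had 77.6 and 81.6. Within the small subunit, 16 with bacterial homologues had 70.4 and 71.9, and 10 mitochondria-specific ones had 76.1 and 72.0. The mitochondria-specific median was the higher in all 4 of these library values, by little in replicate 2 of the small subunit.

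**Figure D2:**
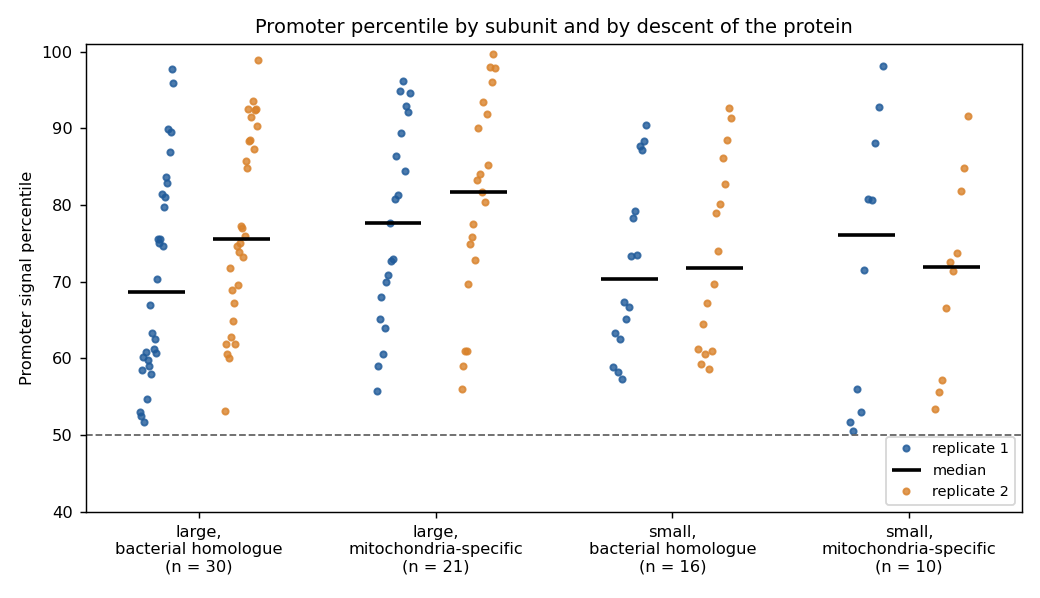
Promoter signal percentile of each member by subunit and by descent of the protein, in replicate 1 (blue) and replicate 2 (orange), with the median of each group as a black bar and percentile 50 as a dashed line. The groups overlap over most of their range, and the mitochondria-specific proteins of the large subunit have the highest medians, 77.6 and 81.6.

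Other genes of mitochondrial translation were as regularly open. All 5 mitochondrial ribosomal proteins without the Mrp prefix were open, with Aurkaip1 at signals of 10.1 and 5.40 and Gadd45gip1 at 3.38 and 2.31. All 11 translation factors were open, from Mtrf1, a release factor (1.06 and 1.01), to Tufm, the elongation factor Tu (12.1 and 4.21), and Mtrf1l (12.6 and 6.52). All 17 mitochondrial aminoacyl-tRNA synthetases and all 6 genes of mitochondrial transcription were open. Of 24 assembly and rRNA modification genes 23 were open, and the exception, the assembly GTPase Mtg2, lacked a peak in both libraries in the strict list used here and had a weak one, with a signal of 0.66, in the permissive list of replicate 1. The 7 nuclear regulators were open as well, from Ppargc1a, the coactivator PGC-1alpha (1.03 and 0.56), to Esrra, the receptor ERR-alpha (26.7 and 10.1). Of 83 cytosolic ribosomal protein genes 81 were open, with a median percentile of 80.5 ± 3.48 (SD, n = 2 libraries), above the 74.3 of the members. That difference was not tested.

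The libraries ranked the members alike in broad terms. Across the 78 members the signals of the libraries had a Spearman correlation of 0.832, and across open genes 0.924. These are descriptions across genes, which share each library's depth. Relative to the median ratio of open genes, the members' ratio of replicate 1 to replicate 2 had a median of 0.90 and lay within 2-fold for 74 of 78 members (94.9%, beside 96.3% of open genes). The ratio was above 1 for 24 members. It was highest at Mrpl41 (1.72, signals of 15.4 and 4.88), Mrpl48 (1.60, 16.5 and 5.62) and Mrpl18 (1.52). It was lowest at Mrpl3 (0.36), Mrps31 (0.47, 2.79 and 3.21) and Mrpl13 (0.49, 3.12 and 3.49). At Mrpl3, Mrps31 and Mrpl13 the raw signal was higher in replicate 2, against the scale of the libraries.

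The open sites were compact. The strongest promoter peak of the members had a median width of 200 bases in both libraries, where open genes had 200 and 220. By the mean of both libraries the widest were at Mrpl34 (360 and 440 bases), Mrpl38 (360 and 360) and Mrpl17 (320 and 360). Width was poorly shared between libraries, with a Spearman correlation of 0.365 across members and 0.508 across open genes, and at Mrps18b the strongest peak was 60 bases wide in replicate 1 and 280 in replicate 2. Only 1 peak lay in the promoter window of 53 members in replicate 1 and 55 in replicate 2, or 67.9% and 70.5%, where open genes had 44.4% and 46.9%. Members have fewer annotated starts, with a median of 1 beside 2 for open genes, which narrows the window. Among genes with 1 start, the shares were 70.2% and 74.5% of 47 members and 49.5% and 52.8% of open genes.

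The strongest peak covered an annotated start in 66 and 69 of 78 members (84.6% and 88.5%), where open genes had 70.4% and 70.9%. Open cytosolic ribosomal protein genes had 86.4% in both libraries, and genes of mitochondrial transcription 66.7% in both. At Mrps18b the strongest peak was centred at -442 bases in replicate 1 and -372 in replicate 2, upstream of its only annotated start. The start of Ppp1r10 on the other strand lies at -177. At Mrpl51 the strongest peak was centred at -424.5 and -394.5 bases, and the start of Ncapd2 on the other strand lies at -464. The first GENCODE start of Mrpl51, at position 125191801 of chromosome 6, is not among the starts used here and lies within that peak. At Mrpl48 the strongest peak was centred 700.5 and 660.5 bases downstream of the first annotated GENCODE start. In both libraries it covered a RefSeq start of that gene, at position 100607622 of chromosome 7. At Mrpl39 it was centred 421.5 and 441.5 bases downstream of the GENCODE start on the minus strand (chromosome 16, position 84735742), and it covers the RefSeq start at 84735244. For Mrpl48 and Mrpl39 the annotation used thus decides whether the peak covers a start.

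Accessible bases were also counted. Bases with a false discovery rate of at most 0.001 within 1 kb of a start had a median of 587 and 729.5 among members, and of 755 and 870 among open genes. Among genes with 1 start the medians were 607 and 739 for members and 703 and 821 for open genes. The most were at Mrpl48, with 2022 bases in replicate 1, a gene with 3 annotated starts. Outside promoters, members had a mean of 3.68 distal open regions within 50 kb, beside 3.45 for open genes. None lay there for 8 members (10.3%), beside 14.3% of open genes and 26.5% of all protein-coding genes. Within 20 kb the order of the means turned, with 1.22 beside 1.42.

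Footprints sat close to the start. Members held 549 distinct footprints in replicate 1 and 615 in replicate 2 within 1 kb, a median of 6 and 7 per member where open genes had 7 and 8. Every member held at least 1 in each library, as did 99.7% of open genes in replicate 1 and 99.7% in replicate 2. Of the members' footprints, 55.6% and 55.2% were centred within 100 bases of the nearest start, beside 43.9% and 42.2% of those at open genes. At cytosolic ribosomal protein genes that share was 56.6% and 52.0%, and at mitochondrial aminoacyl-tRNA synthetases 57.0% and 50.3%. At genes of mitochondrial transcription it was lower, at 47.1% and 41.2%. Within 250 bases lay 81.2% and 81.3% of the members' footprints, beside 70.2% and 69.5% at open genes. The median offset was -22.5 and -10.5 bases, negative meaning upstream, and -30 and -27 at open genes. Measured from the first start only, the members' median was 10.25 bases downstream. That first start is not always 1 of the starts used elsewhere. At Mrpl33, with 1 start, it lies at 31596935, while the strongest peak of replicate 1 begins at 31613861. In the 50 bases just upstream of the nearest start members had 1.28 and 1.41 footprints per gene, and open genes had 1.12 and 1.22. At 200 to 250 bases upstream the order was the opposite, with 0.23 and 0.19 per member and 0.31 and 0.36 per open gene.

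**Figure D3:**
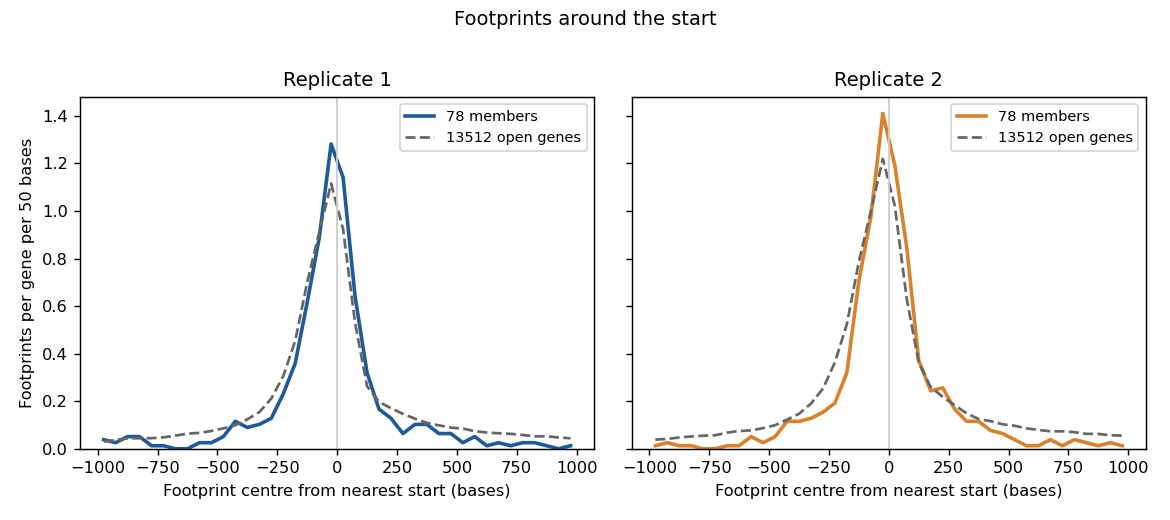
Footprints per gene in bins of 50 bases by distance of the footprint centre from the nearest annotated start, negative upstream, for the 78 members (solid) and 13512 open genes (dashed) in replicate 1 (left) and replicate 2 (right). Members lie above open genes next to the start, at 1.28 against 1.12 in replicate 1, and below them 200 to 250 bases upstream.

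The number of footprints depends on signal, so each member was also set beside open genes in its own decile of promoter signal. In replicate 1, 51 of 78 members had fewer footprints than the median of their decile and 22 had more. In replicate 2 the counts were 52 and 19. No such count over all open genes is given here, so no share stands beside these. The deciles were not matched for annotated starts, of which members have a median of 1 and open genes of 2. Among genes with 1 start, members had a median of 6 and 7 footprints and open genes 7 and 8. The most footprints were at Mrpl48 (17 and 25), Mrps18b (17 and 16), Mrpl40 (13 and 20) and Mrpl23 (18 and 14). The fewest were at Mrps25 (2 and 4), Mrpl3 (1 and 6), Mrpl52 (4 and 3) and Mrps21 (4 and 3). Mrpl52 had few footprints at a middling signal of 6.56 and 4.52, whereas Mrps25 was among the weakest promoters.

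Footprint widths were ordinary. Members had a median width of 12 bases in replicate 1 and 13 in replicate 2, and open genes had 12 and 11. Footprints of 20 bases or more made up 26.5% and 25.9% at members, beside 24.1% and 21.1%. The longest at a member was 52 bases, at Mrpl48 in replicate 2, and the longest in replicate 1 was 43 bases, reached at Mrpl17 and Mrpl34. Of the replicate 1 footprints at members 77.3% overlapped one in replicate 2, beside 67.3% at open genes.

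Many members shared their promoter with a gene on the other strand. A coding start on the opposite strand lay within 1 kb for 32 of 78 members (41.0%), beside 10.5% of all protein-coding genes, 16.1% of open genes and 13 of the 83 cytosolic ribosomal protein genes (15.7%). Of 24 assembly and rRNA modification genes 9 (37.5%) had such a start, as did 2 of 5 ribosomal proteins without the Mrp prefix. So did 6 of 17 mitochondrial aminoacyl-tRNA synthetases (35.3%) and 2 of 6 genes of mitochondrial transcription (33.3%). Shares were lower for translation factors (2 of 11, 18.2%) and nuclear regulators (1 of 7, 14.3%). These lists are small, and no difference was tested. High shares were thus not limited to the members. In 27 of the 32 members the start lay within 300 bases, and it was upstream in 23 and downstream in 9. All partners were open, but their promoter windows overlap those of open members, so this was largely fixed by the definitions. Mrpl46 and Mrps11 are each other's partner, so the 32 members form 31 distinct pairs. In 30 of these both genes had the same strongest peak in both libraries, so their signal is a single measurement, and Mrps5 with Zfp661 was the exception. This arrangement comes from the annotation and not from the libraries.

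Several partners also serve mitochondria or protein synthesis. Mrpl46 and Mrps11, a large- and a small-subunit member, start 30 bases apart and share a peak with signals of 5.24 and 2.56, and their common sequence is shown above as Mrpl46. Mrpl36 and Mrpl47 are paired with Ndufs6 and Ndufb5, subunits of respiratory complex I. Mrpl43 faces Twnk, the helicase of mitochondrial DNA, and Mrps12 faces Sars2, the mitochondrial seryl-tRNA synthetase. Mrps27 is paired with Ptcd2, a mitochondrial RNA-binding protein. Mrpl49 faces Fau, which encodes a cytosolic ribosomal protein fused to a ubiquitin-like domain, from 59 bases upstream. The start of Tcp1, a chaperonin subunit, lies 16 bases downstream of that of Mrpl18, and Mrpl32 faces Psma2, a proteasome subunit. Other partners, such as Hira, a histone chaperone next to Mrpl40, have no such role. No count of partner functions was made, because no list of mitochondrial genes was applied to the pairs.

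**Figure D4:**
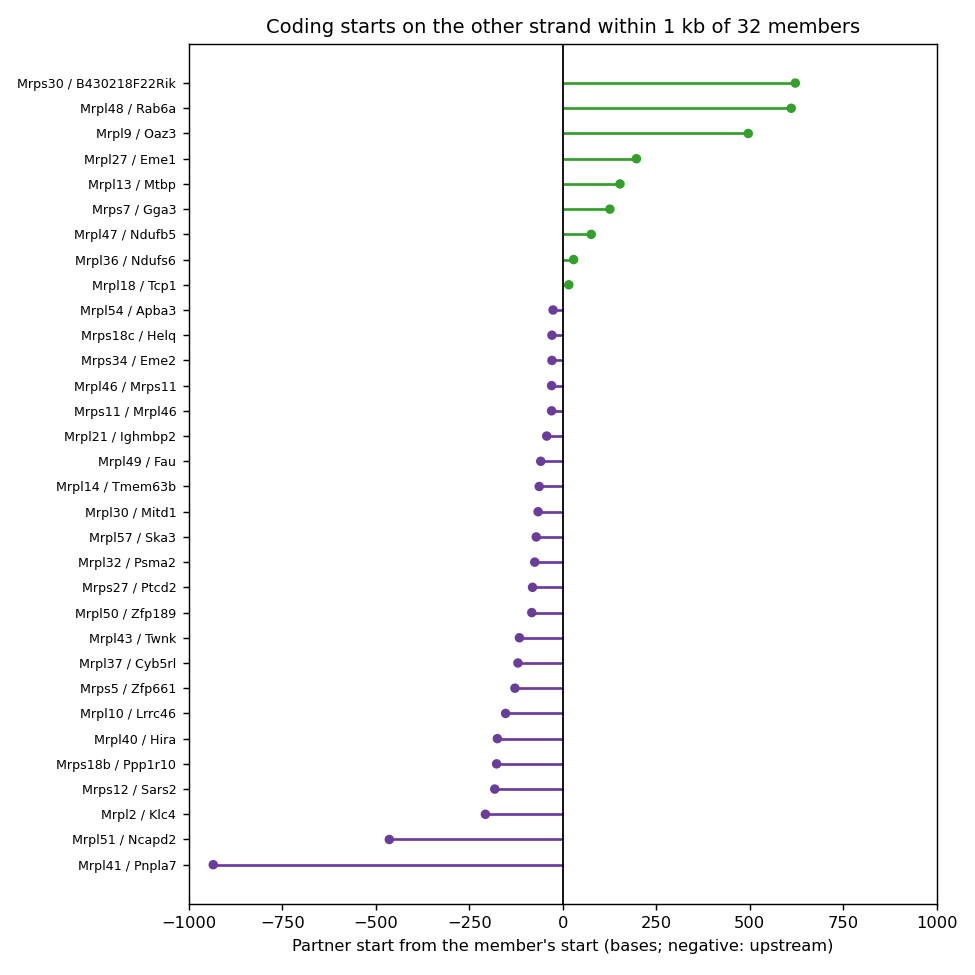
Distance from each member's start to the nearest coding start on the other strand for the 32 members with one within 1 kb, negative when the partner lies upstream (purple) and positive when it lies downstream (green). Most partners, 27 of 32, start within 300 bases of the member.

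Members with such a partner had median signals of 7.98 and 5.19, and the 46 without had 6.23 and 3.94. The same order held among open genes, with 9.10 and 4.90 for those with a partner and 5.60 and 3.20 for those without. Members without a partner were thus above the comparable open genes in both libraries, while members with a partner were below them in replicate 1 and above them in replicate 2.

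Motif words were counted in the RefSeq promoter table, from 250 bases before to 50 bases from the start on, on both strands and with overlapping matches kept. The table held 75 promoters of 69 members, all 75 with a peak in both libraries, among 20150 promoters of which 12446 were open. Mrpl13, Mrpl15, Mrpl19, Mrpl38, Mrpl4, Mrpl54, Mrps28, Mrps34 and Mrps35 had no entry. A match is only a run of letters, and in the other direction no match says only that the letters are not in the window. Base composition differed as well. The ratio of observed to expected CpG had a median of 0.820 in member promoters, 0.770 in open promoters and 0.588 in all, and the GC content was 58.7%, 62.0% and 57.0%. The part of this composition in the motif counts was not tested. A match counts as in a footprint below if at least 1 of its bases lies in one, and the shares for matches covered whole are given beside.

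The word of ETS factors such as GABP, CCGGAAG, was in 26 of 75 member promoters, or 34.7% with a 95% Wilson interval of 24.9% to 45.9%. It was in 17.6% of open and 11.9% of all promoters. Of its 31 matches at members, 54.8% lay in a footprint in both libraries, beside 41.0% of matches in open promoters. Covered whole were 45.2% and 35.5% of the matches at members in replicates 1 and 2, beside 27.8% and 20.4% in open promoters. The words at -9 bases from the start of Mrpl43 and at -16 at Mrpl3 were covered whole in both libraries, as the capitals above show. A further one at -53 at Mrpl43 was covered whole in replicate 1 and in part in replicate 2. The intervals here and below cover counting error only, and promoters that share a pair or a gene are not independent.

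The NRF1 word, GCATGCGC, was in 8 member promoters (10.7%, interval 5.50% to 19.7%), in 5.43% of open and in 3.65% of all promoters. This word and its reverse complement overlap in a palindrome, so 14 matches came from 8 genes. Mrpl9 held it at offsets of -24.5 and -22.5 bases, as such a palindrome, Mrpl17 at -7.5 and Mrpl22 at -29.5, all in footprints in both libraries. Mrpl32 held 4 matches, and of these those at -62.5 and -18.5 were in a footprint in only 1 library. Of all 14 matches 85.7% were in a footprint in both libraries, close to the 87.1% of open promoters. The members' interval starts just above the share of open promoters and rests on 8 promoters. Either the NRF1 or the ETS word was in 30 of the 69 members, and both were in 4: Mrpl17, Mrpl22, Mrpl33 and Mrps18b.

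The YY1 word, AANATGGC, was in 21 member promoters (28.0%, interval 19.1% to 39.0%), beside 8.03% of open and 6.47% of all promoters. Most of its matches lay after the start. Of 24 matches 16, or 66.7%, lay after the start and in the sense direction, beside 35.5% of matches in open promoters. The word contains ATG, and in 11 of the 24 matches (45.8%, beside 22.1%) that ATG was an annotated start codon, among them Mrps27 at 17.5 bases from the start, Mrps7 at 21.5 and Mrps18a at 14.5. Of the matches 41.7% touched a footprint in both libraries, beside 36.2% in open promoters. Covered whole were 12.5% and 20.8% at members in replicates 1 and 2, beside 18.3% and 16.9%. The matches near the start of Mrps27 and Mrps18a were covered in part in both libraries, and that at Mrps7 touched no footprint. The YY1 count thus includes letters around start codons that fall within 50 bases of the start.

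The SP/KLF word, GGGGCGGG, was in 30.7% of member promoters (interval 21.4% to 41.8%), 32.9% of open and 22.9% of all. Of its 28 matches 23, or 82.1%, touched a footprint in both libraries, beside 65.5% in open promoters, a difference that was not tested. Covered whole were 71.4% and 64.3% in replicates 1 and 2, beside 48.4% and 54.1%. Mrpl40 held 2 such matches, at -48.5 and -31.5 bases. For the remaining words the members' interval overlapped that of open promoters. NFY, CCAATCA, was in 14.7% of member, 10.1% of open and 8.96% of all promoters, and CREB/ATF, TGACGTCA, was in 2.67%, 3.23% and 2.31%. The MYC/USF word, CACGTG, was in 9.33%, 10.1% and 8.03%, and ZBTB33, TCTCGCGA, in 1.33%, 2.21% and 1.44%. The ERR word, AAGGTCA, was in 5.33%, 2.76% and 3.97%, and the muscle word CAGCTG, bound by factors such as MyoD, in 16.0%, 15.2% and 15.7%. The word of ZNF143 and THAP11, CTACAATTC, was in 0 of 75 member promoters, with an upper 95% Wilson limit of 4.87%, and in 0.72% of open and 0.52% of all promoters.

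**Figure D5:**
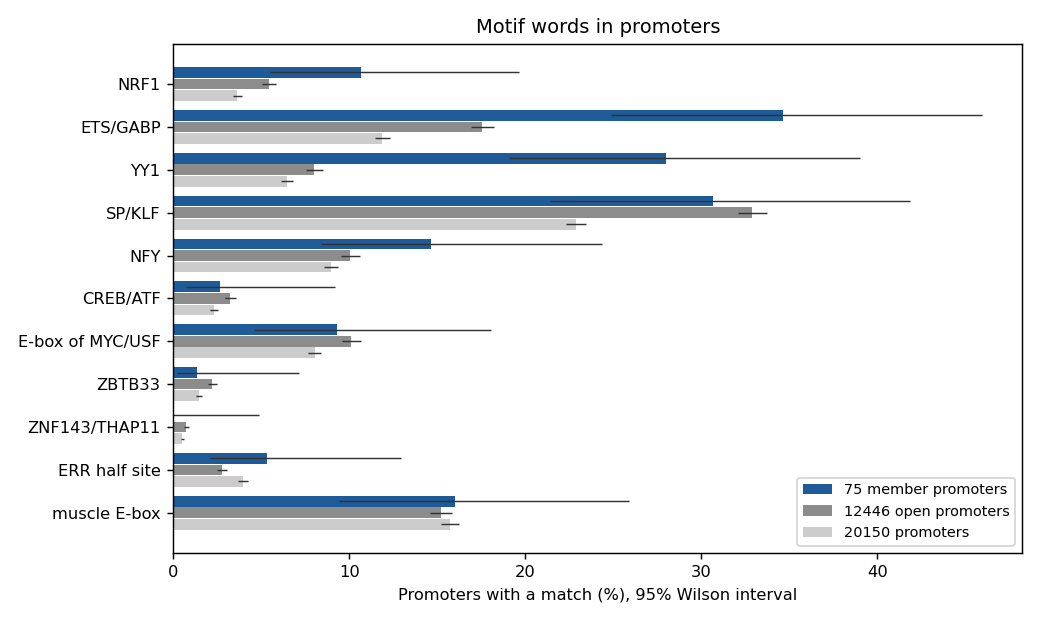
Share of promoters that hold each motif word on either strand, in percent, for 75 member promoters (blue), 12446 open promoters (dark grey) and all 20150 promoters (light grey), with 95% Wilson intervals. The members' interval lies above that of open promoters for ETS/GABP (34.7% against 17.6%) and YY1 (28.0% against 8.03%), and the intervals overlap for the other words.

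Near the start, from 250 bases before to 50 bases from it on, footprints covered more of the member promoters. Of the bases in the table's windows, 24.1% in replicate 1 and 26.4% in replicate 2 lay in a footprint at members, beside 19.7% and 21.3% in open promoters. The part of this coverage in the shares of matches in footprints was not tested.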

How the data were processed

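Deposited peak lists, footprint lists and false discovery rate (FDR) tracks of the 2 DNase-seq libraries were used, on mouse build mm10 per the labels. Peak signal is the authors' own value per peak, deposited in a separate list for each library. No label or file header states its scaling, the aligner or the callers. The FDR of each base and that of the footprints (0.01 throughout) were likewise set by the authors before they were deposited. The strict of 2 peak lists per library served, and the permissive list was an alternative. Read depth was not among the values used, so precision rests on the 2 libraries.

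Starts came from GENCODE M21 (basic set). A promoter was 1 kb on either side of any start, and its signal that of its strongest peak. A footprint counted if its centre lay in the window. Motif words came from the RefSeq promoter table, whose 75 member sequences matched the genome (0 differed). Python 3.11.15, numpy 2.4.6, scipy 1.17.1, pandas 2.3.3, pysam 0.24.0 and matplotlib 3.10.9 were used, and the scripts were tested on simulated data. With 1 group no test was run. Named were the 6 strongest and 6 weakest members, those with extreme footprint counts, library ratios or widths, and a set chosen for their roles. Members, lists and motifs were chosen with earlier results of these data known. Alternatives were other windows, starts, peak lists, overlap rules and each library alone.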

Additional observations from a re-analysis of the deposited data

How the results depend on the processing

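Of 80 alternative values for the main results, 63 stayed within the spread between libraries, or within the counting interval or 1.5 times for shares and counts. The 63 include values that could not have moved. With 2 libraries, the value of each library alone lies within that spread by construction. The count of open members could not rise above 78, nor fall with a single library or a wider window. The number of open members ranged from 76 with the first start only to 78, and was 69 of the 69 members with RefSeq starts. Without replicate 1 and without replicate 2 the median percentile was 75.5 and 73.1. With peak signals summed over the window it was 69.7, beside 69.2 for open genes by the same sum. The median width was 210 bases with RefSeq starts and 205 with the first start only. Footprints wholly inside a peak had a median of 4.5 per member and a width of 13.5. The median offset changed sign to 10.25 bases when measured from the first start, which is not always 1 of the starts used elsewhere. The offset was -5.38 for members with 1 start, an alternative chosen after seeing the data. Within 500 bases of the start the ETS word was in 50.7% and the YY1 word in 42.7% of member promoters, beside 28.7% and 18.1% of open promoters, a comparison added after seeing the data. From 100 before to 50 after it the SP/KLF word was in 17.3%, beside 24.9%. As means over the libraries, matches with any base in a footprint were 92.9% for NRF1, 66.1% for ETS, 47.9% for YY1 and 83.9% for SP/KLF. Counting by the central base, they were 89.3% for NRF1, 58.1% for ETS and 37.5% for YY1. Counting whole matches, they were 78.6% for NRF1, 40.3% for ETS, 16.7% for YY1 and 67.9% for SP/KLF. Wider windows hold more letters and stricter overlap rules count fewer matches by construction. For the other changes the cause was not tested. Distal windows of 20 and 100 kb, also chosen after seeing the data, gave means of 1.22 and 6.83 regions per member, beside 1.42 and 6.73 for open genes, so the order at 50 kb turned at 20 kb. No paired analysis was possible because the study has a single group.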
